A study of Homo sapiens with 12 samples.

Results

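The elements described here are the long terminal repeats (LTRs) of the ERV1 family that lie outside its best known groups. They were taken as rows on the strand of the element, family ERV1, subfamily not an internal part, leaving out LTR7 and its lettered forms, LTR2, LTR2B and LTR2C, LTR12 and its lettered forms, HERV9, HERVE, MER41, MER57 and the lettered MER4 subfamilies. Read counts chose none of them. Of 1509971 elements of 6 transposable element classes listed in any library, 33853 were members, and they belonged to 189 of 1059 subfamilies. All ERV1 elements listed numbered 65833. The study used PAR-CLIP, which sequences RNA crosslinked to a chosen protein, in A375, an established human melanoma line. The cells were transiently transfected with 1 of 4 constructs, fed 4-thiouridine 24 h later and irradiated at 316 nm, which crosslinks the thiouridine in RNA to a bound protein, and the tagged protein was pulled down with an antibody to V5. All groups therefore share the cell line, the tag, the transfection and the labelling. Clover, a fluorescent protein, served as the control. The other constructs carried ZC3H18, whole in Z18fl and shortened in Z18trunc. In Z18truncZnFmut the shortened form also had aromatic residues of its zinc finger mutated. Each construct was expressed from a plasmid in a population of transfected cells and had 3 libraries. No source says that the libraries came from separate cultures, so p-values measure the spread between libraries, which may be technical. The tables hold repeats and no genes, so the A375 label was not checked against marker genes and the level of each transgene was not measured here. No input library was among the samples, so the counts do not separate binding from RNA level.

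An LTR flanks each end of a provirus and carries the signals that start and end its transcription. Most LTRs in the human genome are solitary, because the ends recombined and the internal part was lost. Solitary LTRs can serve cellular genes as promoters, as polyadenylation sites or as exons, and many more lie silent in introns or between genes. ZC3H18 is a zinc finger protein of the nucleus that links RNA to nuclear surveillance, the system that hands unwanted transcripts to the exosome. LTR10 and MER61 are known for holding binding sites of p53. LTR17 is the LTR of HERV-W, which encodes syncytin-1 of the placenta, MER39 drives prolactin in the decidua, MER48 belongs to the provirus that encodes suppressyn, and an LTR10A is a placental promoter of NOS3.

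Sequences of 4 members are given on the strand of the element, 5′ to 3′, from the hg38 assembly. They were chosen because their counts, given further on, show the kinds of change seen between constructs, and capitals mark T, the base read as uridine, where 4-thiouridine can be built in. The first is LTR1A2 in an exon of SAMMSON, a long noncoding RNA of melanoma, and the next MER52A in an intron of LINC01579. Both windows have few T, 52 of the 300 bases shown for LTR1A2 and 40 of the 300 bases shown for MER52A. LTR45C lies in an intron of BRD9. LTR21A, in an intron of MANBA, had lower counts with every ZC3H18 construct. Over the whole elements T made up 16.6% of LTR1A2, 18.3% of MER52A, 18.2% of LTR45C and 22.7% of LTR21A.
LTR1A2 (chr3:69999501-69999800, plus strand, 300 of 500 bases): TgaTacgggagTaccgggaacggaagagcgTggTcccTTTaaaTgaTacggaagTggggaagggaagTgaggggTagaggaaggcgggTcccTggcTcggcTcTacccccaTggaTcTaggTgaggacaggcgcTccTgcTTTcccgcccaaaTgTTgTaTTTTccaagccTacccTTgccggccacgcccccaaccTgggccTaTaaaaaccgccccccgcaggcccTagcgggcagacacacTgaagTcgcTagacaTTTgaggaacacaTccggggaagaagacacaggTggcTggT
MER52A (chr15:93901086-93901385, minus strand, 300 of 1585 bases): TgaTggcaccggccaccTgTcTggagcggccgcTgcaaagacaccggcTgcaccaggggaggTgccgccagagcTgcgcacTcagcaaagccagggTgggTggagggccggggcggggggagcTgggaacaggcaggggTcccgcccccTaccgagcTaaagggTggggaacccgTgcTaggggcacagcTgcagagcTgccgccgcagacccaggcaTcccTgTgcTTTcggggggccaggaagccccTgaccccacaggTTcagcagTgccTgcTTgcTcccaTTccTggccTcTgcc
LTR45C (chr5:859556-859703, minus strand, 148 bases): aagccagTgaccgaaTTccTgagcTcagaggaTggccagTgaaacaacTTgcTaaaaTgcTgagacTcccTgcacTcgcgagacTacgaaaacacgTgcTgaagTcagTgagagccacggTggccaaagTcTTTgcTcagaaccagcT
LTR21A (chr4:102730255-102730501, minus strand, 247 bases): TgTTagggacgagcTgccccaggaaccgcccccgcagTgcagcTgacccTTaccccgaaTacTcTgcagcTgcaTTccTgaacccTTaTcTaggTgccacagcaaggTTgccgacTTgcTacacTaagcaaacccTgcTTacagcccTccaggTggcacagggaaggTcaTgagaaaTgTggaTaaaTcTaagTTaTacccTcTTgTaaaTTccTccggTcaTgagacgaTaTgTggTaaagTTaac

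The libraries held 16683132 to 25686948 aligned fragments each. In 11 of them 660648 to 1414945 counts fell on the strand of the element over all classes. Z18truncZnFmut replicate 3 stood apart with 2183589 element counts. It listed 21688 members where the other libraries listed 2640 to 7428, and 55.4% of its element counts were on the strand of the element, against 60.3% to 64.0% elsewhere. Counts of calls by subfamily and by locus, and some subfamily values, that rest on this library are given with and without it. Values of single loci are given with it. Z18trunc replicate 3 also differed from its group, listing 7428 members against 4634 and 4839. Its share of counts on the strand of the element was 60.7%, against 64.0% and 63.0%. Tests scaled the libraries by TMM, which sets most elements as unchanged. When library sizes were taken from aligned fragments instead, the median log2 fold change of all subfamilies over Clover moved from -0.01 to 0.45 in Z18fl, from -0.01 to 0.48 in Z18trunc and from 0.03 to 1.04 in Z18truncZnFmut. The median of all loci moved to 0.37, 0.31 and 0.15. Values below are relative to the bulk of the elements unless aligned fragments are named.

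The members took a small part of the element counts. Clover libraries gave them 2.08% ± 0.036 (SD, n = 3) and Z18fl libraries 2.02% ± 0.069. Z18trunc gave 1.84% ± 0.055 and Z18truncZnFmut 2.06% ± 0.19. On a counts-per-million (CPM) scale over aligned fragments they had 865, 791 and 806 counts in Clover and 1041, 1032 and 1076 with Z18fl, then 1008, 1030 and 1110 with Z18trunc and 1037, 1005 and 2060 with Z18truncZnFmut. Every ZC3H18 library was above every Clover library on that scale. All LTR class counts were 6647 ± 288 (SD) CPM in Clover and 7476 ± 181 in Z18fl. Within ERV1 the members took 22.3% ± 1.05 of the counts in Clover and 30.6% ± 0.86 in Z18fl, with no overlap between the libraries. That share was 27.7% ± 1.64 in Z18trunc and 26.9% ± 4.05 in Z18truncZnFmut. These sums are descriptions and were not tested.

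**Figure D1:**
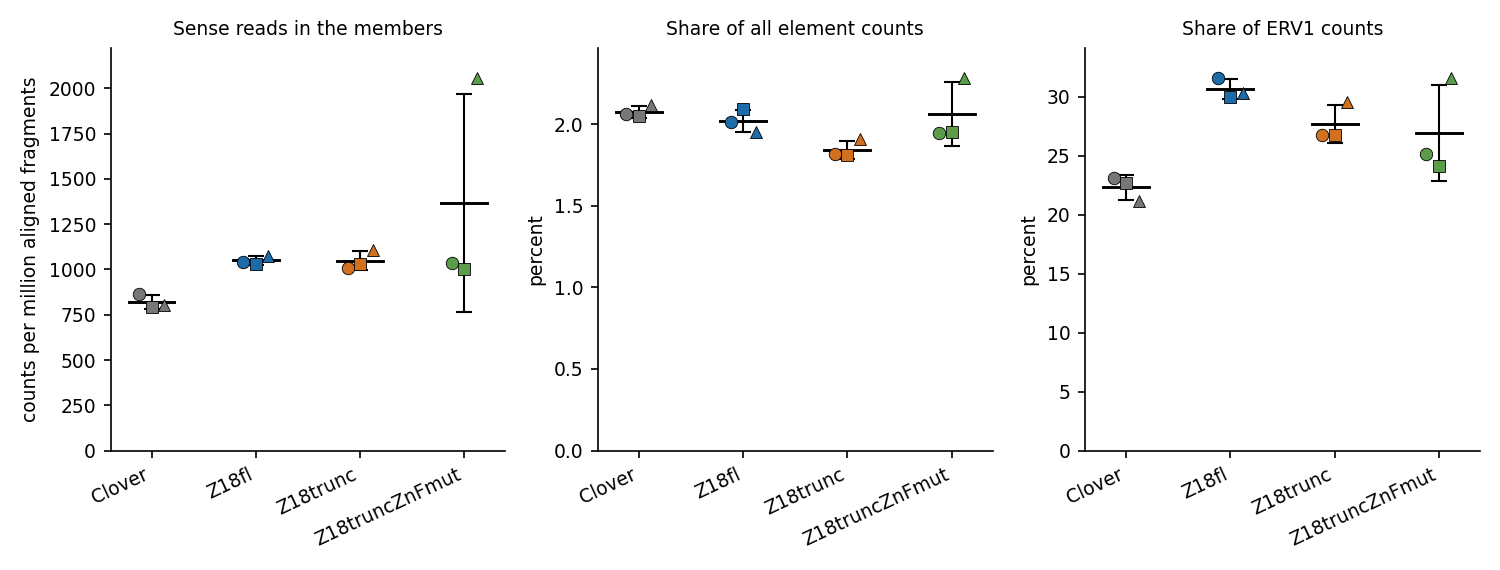
Sense reads in the members in the 12 libraries, in CPM of aligned fragments, as percent of all element counts and as percent of ERV1 counts; circles, squares and triangles are replicates 1, 2 and 3, lines are means and bars SD (n = 3). Z18truncZnFmut replicate 3 sits at 2060 CPM, and the Clover libraries lie lowest in the right panel, at 21.1% to 23.1%.

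The counts were concentrated in few copies. The 10 leading loci of each library held 16.5% to 24.0% of the member counts, and 9.0% in Z18truncZnFmut replicate 3. Uniquely mapping reads made up 56.9% to 72.3% of member counts, and the rest were multimapping reads shared out by estimate. MER52A alone held 18.4% to 24.4% of member counts in 11 libraries and 11.7% in Z18truncZnFmut replicate 3.

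By subfamily, Z18fl was set apart from Clover by rises in the LTR1 group and falls in MER51A, MER51C, LTR54, LTR21A and MER65C. Of 154 member subfamilies tested, 17 were higher and 29 lower in Z18fl (edgeR adjusted p under 0.05). Over all 915 subfamilies 20.1% were called higher and 20.1% lower. The median log2 fold change was -0.11 for members and -0.01 for all. Library sizes from aligned fragments gave 50 higher and 11 lower, 32.5% and 7.14% of members against 54% and 4.15% of all. In Z18trunc 5 of 157 member subfamilies were higher and 18 lower, against 14.5% and 11.9% of all. Those counts became 36 and 2 with aligned fragments, 22.9% and 1.27% of members against 45.2% and 0.973% of all. Leaving out Clover replicate 3 or Z18trunc replicate 2 left 3 higher, and leaving out Z18trunc replicate 3 gave 10. The 18 lower became 11 without Clover replicate 3.

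LTR1 is a group of LTRs of ERV1 proviruses, and its commonest subfamily in these libraries was LTR1A2. In Z18fl 8 of 15 LTR1 subfamilies tested were higher and 0 lower, with a median log2 fold change of 0.50. LTR1A2 had 1213, 1254 and 1292 TMM-scaled CPM of element counts in Clover and 2056, 1914 and 1944 with Z18fl, then 1892, 1857 and 1638 with Z18trunc and 2096, 1673 and 683 with Z18truncZnFmut. The Z18fl and Z18trunc libraries were all above Clover, and the last Z18truncZnFmut library fell below it. The log2 fold change over Clover was 0.64 ± 0.07 (SE) in Z18fl (edgeR adjusted p = 1.4e-06), 0.50 ± 0.09 in Z18trunc (edgeR adjusted p = 4.2e-04) and 0.23 ± 0.33 in Z18truncZnFmut (edgeR adjusted p = 0.72). Without Z18truncZnFmut replicate 3 the last value was 0.59 (edgeR adjusted p = 1.1e-07). LTR1F2 rose by 0.95 ± 0.23, LTR1B0 by 0.70 ± 0.23 and LTR1D by 0.68 ± 0.16 in Z18fl. LTR1F2 lost its call with uniquely mapping reads (0.68, edgeR adjusted p = 0.063). LTR1B0 lost it with DESeq2 (0.69), and without Clover replicate 3, Z18fl replicate 1 or Z18fl replicate 3, where its log2 fold change was 0.58, 0.71 and 0.64. In Z18trunc 1 of 15 LTR1 subfamilies was higher, LTR1A2, and the median of the 15 was 0.25.

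Other subfamilies that rose in Z18fl were rarer. LTR61 rose by 1.12 ± 0.32 on the log2 scale, from 28.5, 9.54 and 18.7 CPM in Clover to 51.7, 38.0 and 36.9, and missed the threshold without Z18fl replicate 1 (0.97, edgeR adjusted p = 0.065). PABL_B rose by 0.72 ± 0.19 and had 0.29 with uniquely mapping reads (edgeR adjusted p = 0.49). MER51D, singled out after its values were seen, lay below the mean of 50 counts set for naming subfamilies, with 3, 9 and 9 counts in Clover, 43, 28 and 44 with Z18fl and 43, 48 and 41 with Z18trunc. Its libraries of both constructs lay above all Clover libraries. It rose by 1.48 ± 0.39 in Z18fl (edgeR adjusted p = 0.0061) and by 1.67 ± 0.41 in Z18trunc (edgeR adjusted p = 0.0048), opposite to MER51A and MER51C. Both calls held under each alternative run. In Z18truncZnFmut it was 0.61 ± 0.51 (edgeR adjusted p = 0.55). In Z18trunc LTR9A1 rose by 0.68 ± 0.23 and LTR65 by 0.60 ± 0.21. Both calls were lost with DESeq2 and with each of several libraries left out, LTR65 with any of the 6.

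The falls were led by MER51A and LTR54, as sums over all copies. Copies in untranslated regions of GPI and YY1AP1 held much of the MER51A sum. These had 208, 242 and 232 and 86, 95 and 81 counts in Clover. A copy antisense to RAB11B-AS1 held much of the LTR54 sum, with 55, 74 and 84 counts in Clover. The sums do not show that the remaining copies fell, and sums without these loci were not tested. MER51A had 604, 707 and 662 CPM in Clover and 293, 276 and 285 with Z18fl, then 381, 396 and 321 with Z18trunc and 380, 393 and 201 with Z18truncZnFmut. All ZC3H18 libraries were below all Clover libraries. The log2 fold change was -1.22 ± 0.08 in Z18fl (edgeR adjusted p = 3.6e-08) and -0.87 ± 0.11 in Z18trunc (edgeR adjusted p = 5.4e-06), and it was -0.74 and -0.38 with aligned fragments. In Z18truncZnFmut it was -1.04 ± 0.24 (edgeR adjusted p = 0.068, DESeq2 adjusted p = 0.0021), with aligned fragments it was -0.22 (edgeR adjusted p = 0.58), and without its replicate 3 it was -0.77 (edgeR adjusted p = 8.0e-09). LTR54 fell by 1.28 ± 0.15 in Z18fl and by 0.79 ± 0.16 in Z18trunc, from 147, 170 and 198 CPM in Clover to 65.05, 75.2 and 71.7 in Z18fl. MER65C fell by 1.22 ± 0.12 and 0.83 ± 0.14, LTR21A by 1.19 ± 0.11 and 0.95 ± 0.14, MER51C by 1.14 ± 0.14 and 0.72 ± 0.18, and LTR25 by 1.03 ± 0.16 and 0.70 ± 0.18. In Z18trunc the leading falls also held LTR58 (-0.97 ± 0.24), LTR64 (-0.94 ± 0.19) and LTR35B (-0.86 ± 0.18). With aligned fragments these were -0.49, -0.45 and -0.36, and LTR54, MER65C, MER51C and LTR25 were -0.29, -0.34, -0.25 and -0.22 in Z18trunc, and none of the 7 passed the threshold. LTR58 also missed it without Clover replicate 3 (-0.79, edgeR adjusted p = 0.052).

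**Figure D2:**
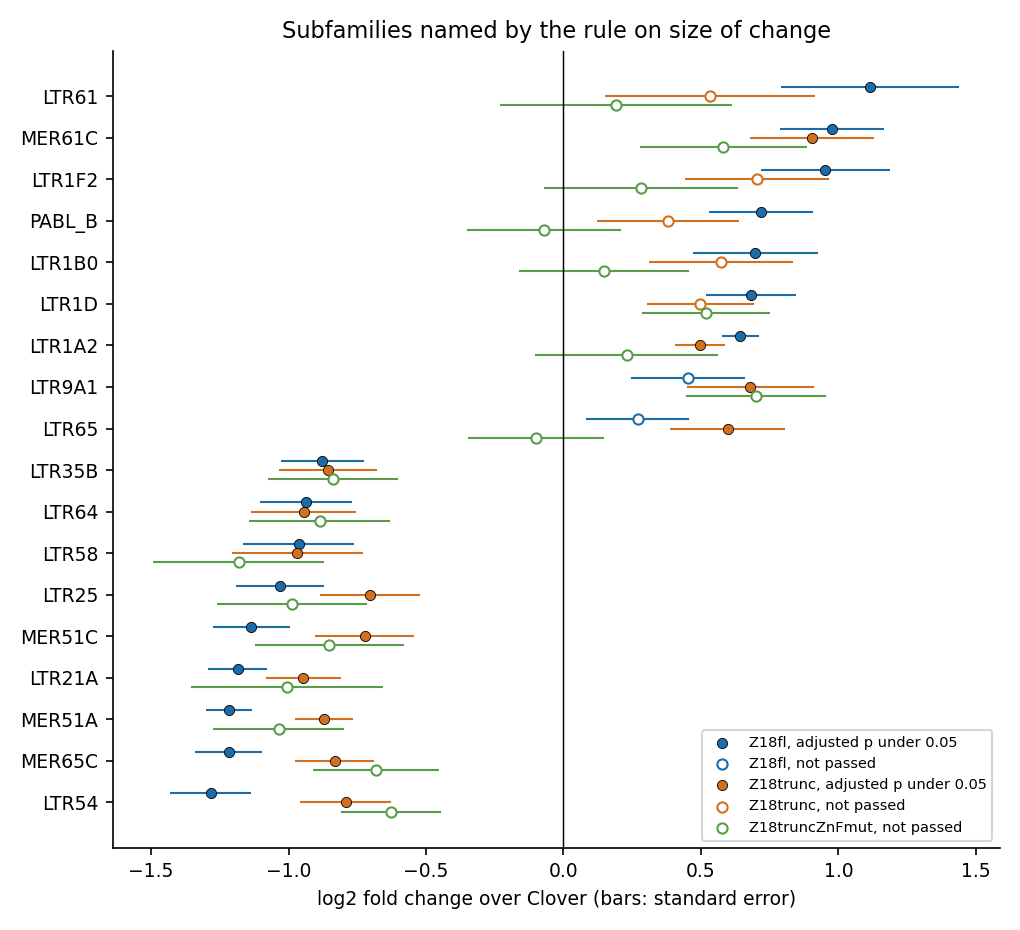
Log2 fold change over Clover of the subfamilies that changed most, for Z18fl, Z18trunc and Z18truncZnFmut; bars are standard errors and filled points passed an edgeR adjusted p under 0.05. LTR54, MER51A, MER65C and LTR21A lie furthest left, between -1.28 and -1.19 in Z18fl, and no Z18truncZnFmut point is filled. The 3 comparisons share the Clover libraries.

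The p53-linked list took LTR10 or MER61 followed by letters, which leaves out LTR10B2. It had 12 subfamilies tested, and 1 was higher and 1 lower both in Z18fl and in Z18trunc, with medians of 0.08 and 0.16. MER61C had 45.6, 33.4 and 40.5 CPM in Clover and 76.7, 78.6 and 82.6 with Z18fl, then 70.9, 82.1 and 75.4 with Z18trunc and 71.3, 70.1 and 41.5 with Z18truncZnFmut. Its Z18fl and Z18trunc libraries did not overlap with Clover. It rose by 0.98 ± 0.19 in Z18fl (edgeR adjusted p = 6.1e-04) and by 0.90 ± 0.22 in Z18trunc (edgeR adjusted p = 0.0053), the latter with 0.67 from uniquely mapping reads (edgeR adjusted p = 0.13). MER61E moved the other way, from 359, 353 and 371 CPM in Clover to 226, 207 and 201 in Z18fl and 300, 261 and 170 in Z18trunc. It fell by 0.78 ± 0.09 in Z18fl (edgeR adjusted p = 5.0e-06) and by 0.60 ± 0.16 in Z18trunc (edgeR adjusted p = 0.0092). The Z18trunc value was -0.12 with aligned fragments (edgeR adjusted p = 0.51) and -0.55 without Clover replicate 3 (edgeR adjusted p = 0.055). None of the 7 LTR10 subfamilies tested, LTR10B2 included, passed the threshold in Z18fl or in Z18trunc. LTR10A was -0.14 ± 0.12 in Z18fl (edgeR adjusted p = 0.40), 0.34 with aligned fragments (edgeR adjusted p = 0.033) and -0.76 with uniquely mapping reads (edgeR adjusted p = 0.0016), so neither its direction nor its call was settled.

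Among the 4 LTRs known as promoters in reproductive tissue, LTR10A again included, LTR17 was lower in Z18fl and Z18trunc and the other 3 did not pass. LTR17 had 1340, 1416 and 1532 CPM in Clover, 1169, 1111 and 1105 in Z18fl, and 1317, 1233 and 979 in Z18trunc. The log2 fold change was -0.35 ± 0.07 in Z18fl (edgeR adjusted p = 9.0e-04) and -0.31 ± 0.11 in Z18trunc (edgeR adjusted p = 0.044), and with aligned fragments it was 0.12 and 0.18, with the sign turned. The Z18trunc call was also lost with DESeq2 and without any 1 of Clover replicates 1, 2 and 3 and Z18trunc replicates 2 and 3, between -0.16 and -0.35. MER39 was 0.26 ± 0.10 in Z18fl (edgeR adjusted p = 0.054) and 0.10 ± 0.13 in Z18trunc, and MER48 was 0.17 ± 0.22 and 0.05 ± 0.27.

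MER52A, the subfamily with the most counts, did not pass the threshold as a sum, while its copies moved in opposite directions. It had 4122, 4483 and 4674 CPM in Clover and 4252, 3903 and 4191 in Z18fl, and its log2 fold change was -0.11 ± 0.07 (edgeR adjusted p = 0.20). The value was 0.36 with aligned fragments (edgeR adjusted p = 0.0011) and 0.73 with uniquely mapping reads (edgeR adjusted p = 4.1e-08). Copies on 2 unplaced scaffolds, 4 of them tested, held 67.9% to 71.2% of the MER52A counts in Clover and 43.6% to 46.1% in Z18fl. The range was 52.1% to 57.3% for Z18trunc and 48.2% to 64.9% for Z18truncZnFmut. They lie at 46984 to 47723 and 47736 to 48245 of chrUn_GL000214v1 and at 55968 to 56477 and 56490 to 57229 of chrUn_KI270751v1. The copies on scaffolds had 2797, 3080 and 3326 CPM in Clover and 1961, 1702 and 1868 in Z18fl. All other MER52A copies together had 1325, 1403 and 1348 CPM in Clover and 2291, 2200 and 2324 with Z18fl, then 1878, 1789 and 1607 with Z18trunc and 1886, 1764 and 907 with Z18truncZnFmut. So the placed copies were higher and the scaffold copies lower in every Z18fl library than in every Clover library. All 4 scaffold copies were called lower in Z18fl, with log2 fold changes from -0.73 to -0.46 (-0.36 to -0.10 with aligned fragments), 2 in Z18trunc and 0 in Z18truncZnFmut. The copies on one scaffold match those on the other in length and divergence. Their mean SQuIRE scores, the percent of aligned reads credited to the element, were 28.6 to 48.4 in Clover, so reads cannot be assigned to 1 of them with certainty. No test with uniquely mapping reads was possible at these 4 copies.

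At single loci the rises gathered in MER52 and LTR1. Of 271 member loci tested in Z18fl against Clover, 72 were higher and 69 lower, against 28.3% and 24.6% of all 12098 loci, and members reached 26.6% and 25.5%. The median log2 fold change was 0.04 for members and 0.01 for all. The 69 lower were 40 without Z18fl replicate 1, 37 without replicate 2, 40 without replicate 3 and 29 with aligned fragments. In Z18trunc 31 of 273 were higher and 42 lower, against 22.5% and 13.4% of all, with medians of -0.18 and -0.03. The 42 lower were 27 without Clover replicate 3 and 12 with aligned fragments. Leaving out Z18trunc replicate 1, 2 or 3 gave 17, 22 and 22. All 72 and 31 loci called higher were still called higher with aligned fragments. That scale raised the median of all loci to 0.37 in Z18fl and 0.31 in Z18trunc, so keeping these calls was no separate check. Of those called higher, 58 in Z18fl and 25 in Z18trunc could be tested with uniquely mapping reads, all kept their direction, and 55 and 21 kept the call.

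MER52 had 27 loci higher and 7 lower of 57 in Z18fl (median 0.88), LTR1 had 21 and 3 of 49 (median 0.68) and LTR2752 3 and 0 of 9. Joined after these values were seen, the 3 name groups had 51 higher and 10 lower of 115 in Z18fl (median 0.72), and the other members 21 and 59 of 156 (median -0.58). Without Z18fl replicate 1, 2 or 3 the 59 were 33, 30 and 34, and the 10 were 6 without Z18fl replicate 3. With aligned fragments the same counts were 66 and 5 for the 3 groups and 28 and 24 for the others. LTR8 had 2 higher and 9 lower of 20 and MER51 1 and 5 of 10. In Z18trunc the 3 joined groups had 21 higher and 7 lower of 110 and the others 10 and 35 of 163. The 7 lower were 1 without Z18trunc replicate 1 or 2. Of the others, 4 were higher without Clover replicate 1 and 5 without any 1 of the Z18trunc libraries, and 22 were lower without Clover replicate 3. Dropping Z18trunc replicate 1, 2 or 3 left 16, 21 and 18 lower. LTR1 there had 12 higher and 3 lower of 51 and MER52 8 and 4 of 50.

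**Figure D3:**
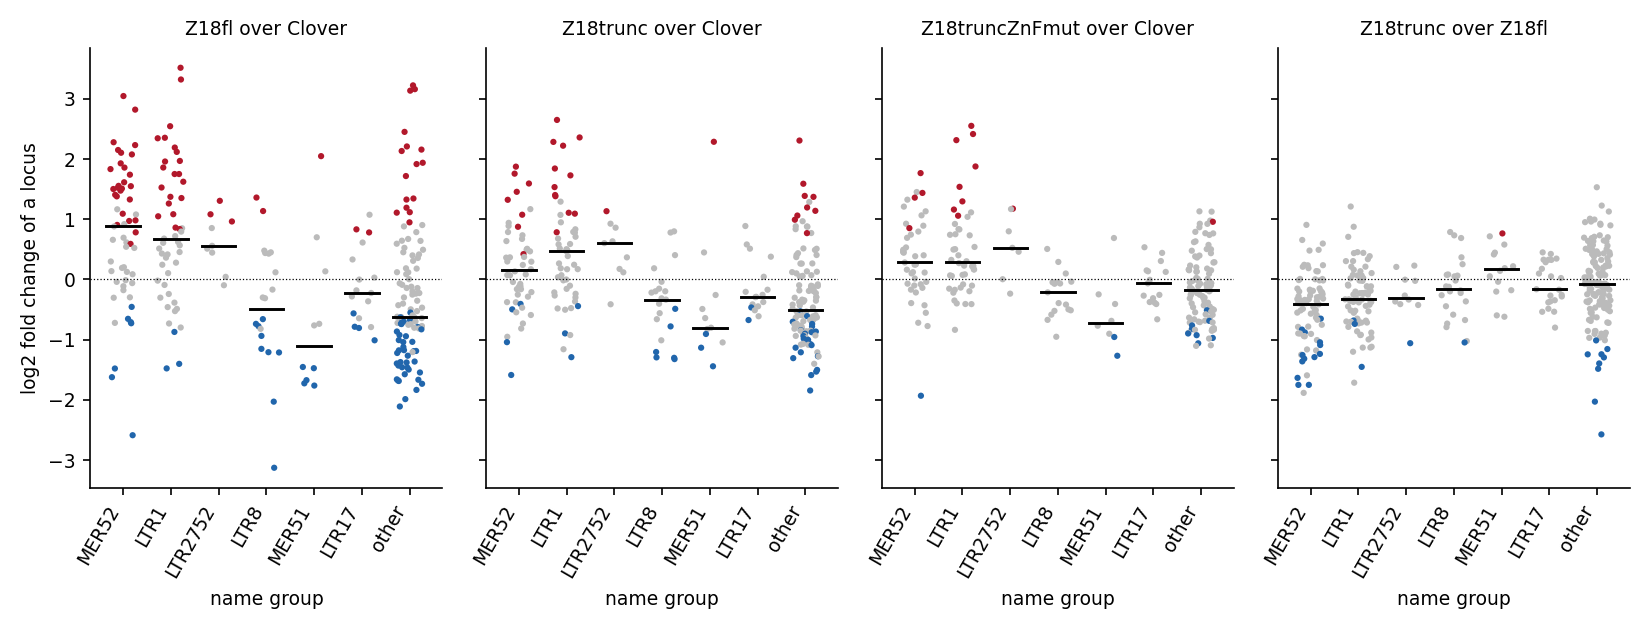
Log2 fold change of each tested member locus by name group in 4 comparisons; red and blue points were called higher and lower by edgeR and black lines are medians. The MER52 and LTR1 loci lie mostly above 0 in Z18fl over Clover, with medians of 0.88 and 0.68, and mostly below 0 in Z18trunc over Z18fl. The first 3 panels share the Clover libraries.

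The loci named next were picked after their values were seen, and their tests describe them. The rules that named loci asked for groups that did not overlap, so at loci named that way the separation follows from the choice. SAMMSON held 2 LTR1A2 fragments that meet end to end at chr3:69999501-70000000 and chr3:70000001-70000359, the first counted as an exon and the second in an intron. The exonic fragment had 8, 12 and 10 counts in Clover and 108, 66 and 103 with Z18fl, then 91, 114 and 130 with Z18trunc and 89, 77 and 85 with Z18truncZnFmut. No ZC3H18 library overlapped with Clover, and the 9 ZC3H18 libraries ran from 66 to 130 counts. The log2 fold change was 2.35 ± 0.29 in Z18fl (edgeR adjusted p = 4.5e-06), 2.65 ± 0.29 in Z18trunc (edgeR adjusted p = 8.5e-07) and 2.42 ± 0.30 in Z18truncZnFmut (edgeR adjusted p = 4.0e-06). The other fragment rose by 1.96 ± 0.29, 2.36 ± 0.28 and 1.88 ± 0.31. Another LTR1A2, antisense to EPS8, an adaptor that caps and bundles actin, lies at chr12:15688314-15689073. It rose by 2.35 ± 0.28, 2.22 ± 0.30 and 2.31 ± 0.32. An LTR1A2 between genes at chr1:189149550-189150337 rose by 1.75 ± 0.23, 1.73 ± 0.25 and 1.54 ± 0.27.

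MER52A in the long noncoding RNA LINC01579 (chr15:93899801-93901385) was among the best covered loci, with 87, 57 and 78 counts in Clover and 354, 378 and 440 with Z18fl, then 383, 325 and 368 with Z18trunc and 290, 290 and 348 with Z18truncZnFmut. No ZC3H18 library overlapped with Clover, and the log2 fold changes were 1.55 ± 0.16, 1.46 ± 0.16 and 1.44 ± 0.19. MER52A in RPTOR, which encodes the raptor subunit of the growth regulator mTORC1, lies at chr17:80914119-80916662. Its locus CPM, scaled to the counts in tested loci, were 36.5, 25.4 and 53.7 in Clover and 168, 151 and 170 with Z18fl, then 102, 83.8 and 124 with Z18trunc and 86.7, 94.2 and 82.0 with Z18truncZnFmut. It rose by 2.15 ± 0.26, 1.59 ± 0.30 and 1.36 ± 0.33. MER61C in an exon of PURPL, a long noncoding RNA induced by p53, lies at chr5:27477543-27477973 and had a log2 fold change of 1.19 ± 0.39 in Z18fl and 1.20 ± 0.41 in Z18trunc. The Z18fl value was 0.82 without Clover replicate 3 (edgeR adjusted p = 0.12). The Z18trunc value missed the threshold with DESeq2 (1.25). It lay between 0.87 and 1.23 without Clover replicate 2 or 3 or Z18trunc replicate 2 or 3, and missed the threshold each time.

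Of the 69 loci that fell in Z18fl 32 lay in exons, 23 of them in untranslated regions. Of all 2981 loci that fell there, members or not, 1521 lay in exons, 1366 of them in untranslated regions. MER51A in an untranslated region of GPI, the glycolytic enzyme glucose-6-phosphate isomerase, lies at chr19:34402200-34402501. It had 583, 683 and 656 locus CPM in Clover and 188, 198 and 188 with Z18fl, then 275, 250 and 252 with Z18trunc and 271, 336 and 271 with Z18truncZnFmut. Every ZC3H18 library was below every Clover library, with Z18fl lowest, and the log2 fold changes were -1.67 ± 0.14 (edgeR adjusted p = 6.0e-08), -1.13 ± 0.14 (edgeR adjusted p = 3.8e-06) and -0.95 ± 0.17 (edgeR adjusted p = 2.0e-04). MER51A in an untranslated region of YY1AP1, a partner of the transcription factor YY1, fell by 1.76 ± 0.20, 0.90 ± 0.18 and 1.27 ± 0.22 (chr1:155659363-155659627). LTR25 in an untranslated region of the zinc finger gene ZNF155 fell by 1.66 ± 0.19, 1.13 ± 0.19 and 0.92 ± 0.20 (chr19:43997621-43998440). LTR21A in an intron of MANBA, the lysosomal beta-mannosidase, fell from 331, 387 and 433 to 127, 160 and 130 locus CPM in Z18fl (-1.39 ± 0.17), and by 1.07 ± 0.16 in Z18trunc and 0.76 ± 0.18 in Z18truncZnFmut. The last was -0.55 with aligned fragments (edgeR adjusted p = 0.069).

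Some genes held several members that moved together. APOBEC3C, a cytidine deaminase that restricts retroviruses, held MER65C (chr22:39019077-39019516) and MER49 (chr22:39020095-39020349) in its untranslated region. In Z18fl these fell by 1.46 ± 0.19 and 1.67 ± 0.34, and in Z18trunc by 1.01 ± 0.18 and 0.88 ± 0.32. In Z18truncZnFmut the values were -0.45 ± 0.20 (edgeR adjusted p = 0.14) and -0.13 ± 0.35 (edgeR adjusted p = 0.86). The MER49 fall in Z18trunc missed the threshold without Clover replicate 3 (-0.56), Z18trunc replicate 1 (-0.72) or Z18trunc replicate 3 (-0.69), with DESeq2 (-0.84) and with aligned fragments (-0.52). PUM3, a Pumilio family protein of the nucleolus, held 5 members called lower in Z18fl, 4 LTR8B and 1 LTR49, and 4 LTR8B called lower in Z18trunc, all in introns. With aligned fragments 1 of the 5 was still called, an LTR8B at -2.77. Loci in 1 gene can lie on 1 transcript and are not independent. LTR35B in coding sequence of LAMA5, a laminin chain, fell by 0.83 ± 0.20 and 0.84 ± 0.21 in Z18fl and Z18trunc (chr20:62366949-62367030). With aligned fragments it was -0.46 (edgeR adjusted p = 0.062) and -0.49 (edgeR adjusted p = 0.080).

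**Figure D4:**
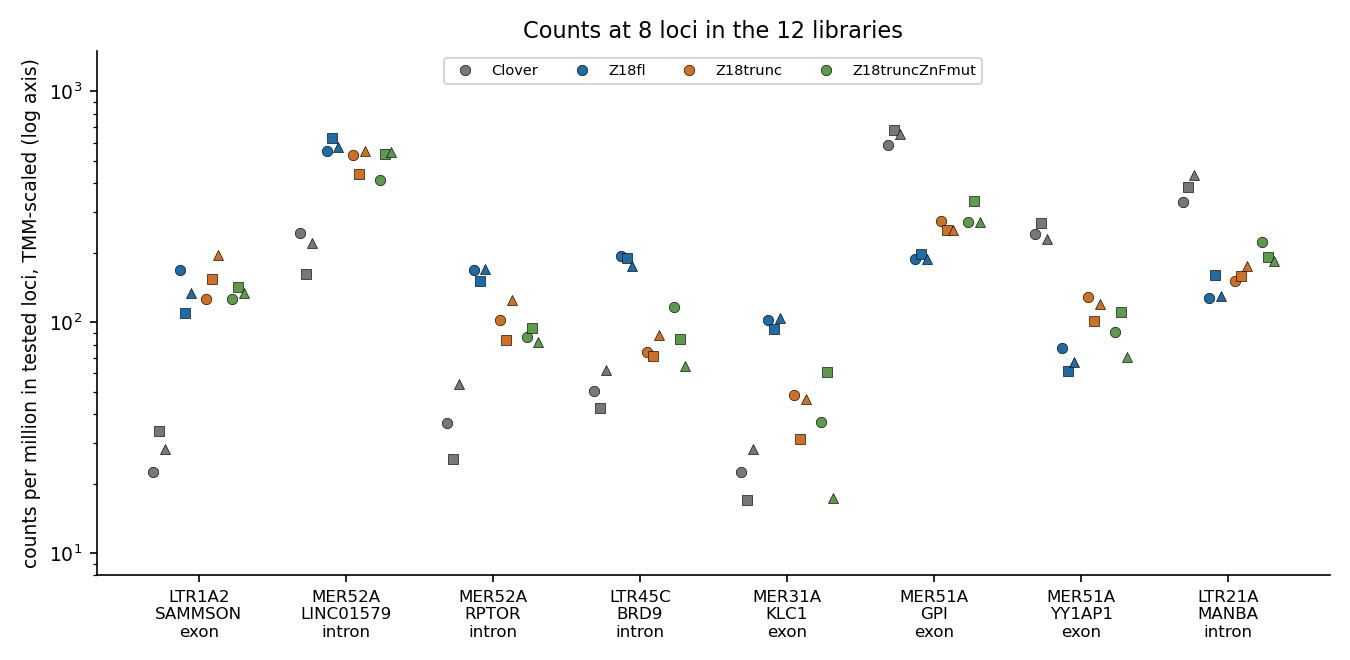
Locus CPM (TMM-scaled, log axis) of 8 loci in the 12 libraries; circles, squares and triangles are replicates 1, 2 and 3. The 5 loci on the left have every Z18fl library above every Clover library and the 3 on the right every Z18fl library below. The rules that named loci asked for groups that did not overlap.

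By gene context, exonic members fell more often than they rose in Z18fl and intronic members rose more often than they fell, as did all loci in these contexts. Of 88 tested members in exons 15 were higher and 32 lower in Z18fl, 17.0% and 36.4%, against 11.5% and 42.4% of all exonic loci. Of 96 in introns 30 were higher and 12 lower, 31.3% and 12.5%, against 41.8% and 12.8% of all intronic loci. In untranslated regions 4 of 40 members were higher and 23 lower, 10% and 57.5%, against 4.66% and 53.4% of all loci there. In exons of transcripts without coding sequence 11 of 46 were higher and 8 lower, 23.9% and 17.4%, against 29.4% and 14.3% of all. Antisense members had 5 higher and 9 lower of 21, 23.8% and 42.9%, against 18.8% and 28.1% of all antisense loci. Members between genes had 22 and 16 of 66, 33.3% and 24.2%, against 28.1% and 22.1% of all. By divergence from the consensus, 24 of 92, 24 of 88 and 24 of 91 members were higher in the low, middle and high class. These are 26.1%, 27.3% and 26.4%, against 30.6%, 28.4% and 23.7% of all loci. In Z18trunc 12 of 88 intronic members were higher and 8 lower, 13.6% and 9.09%, against 35.4% and 6.01% of all intronic loci. Exonic members there had 8 higher and 18 lower of 86, 9.30% and 20.9%, against 4.08% and 26.6% of all exonic loci.

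**Figure D5:**
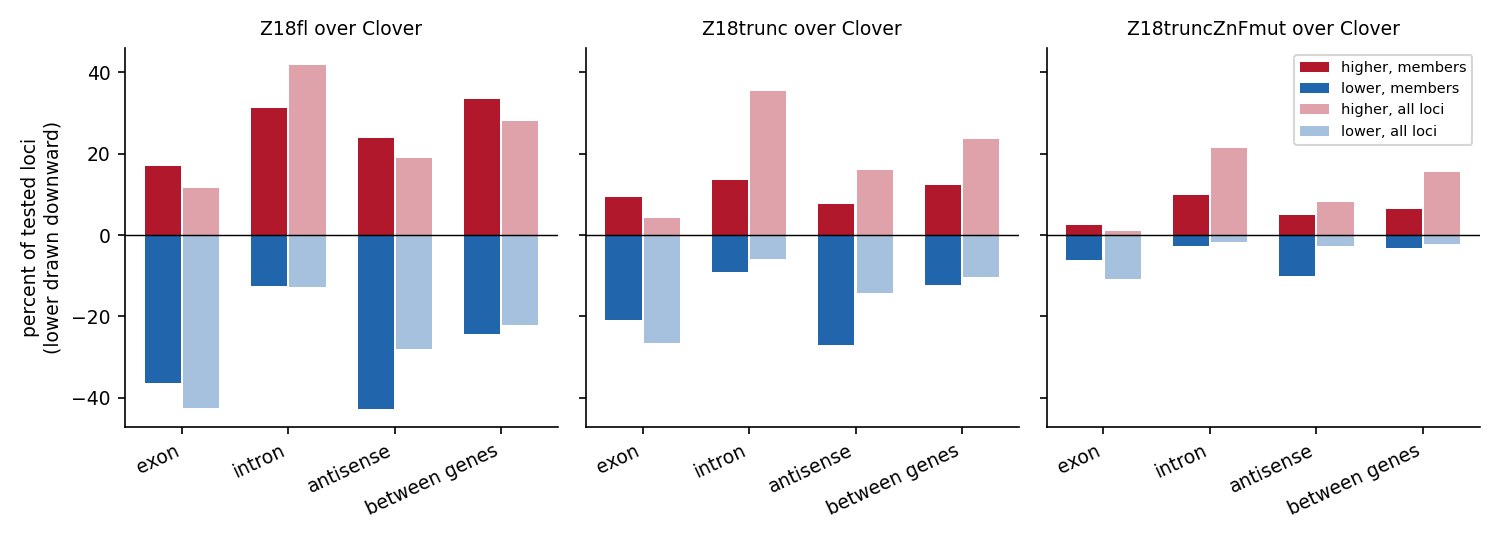
Percent of tested loci called higher (upward) and lower (downward) over Clover by gene context, for members (dark) and all loci of the 6 classes (pale). In Z18fl 36.4% of exonic members were lower and 31.3% of intronic members higher. The 3 panels share the Clover libraries.

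Members that rose and fell in Z18fl differed in base composition. The median T content was 20.1% in the 72 higher loci and 25.2% in the 69 lower ones, and the median G content 27.4% and 20.5%. In the lowest T class of members (below 20.4%) 39 of 91 were higher and 10 lower, and in the highest (above 25.1%) 12 of 90 were higher and 35 lower. For all loci within the same T limits the shares higher were 25% and 20.9%, and the shares lower 26.3% and 29%. In the middle T class, between these limits, 21 of 90 members were higher and 24 lower, 23.3% and 26.7%, against 39.1% and 18.9% of all loci. The share higher therefore fell from class to class in members, while for all loci it was largest in the middle class. MER52, LTR1 and LTR2752 are poor in T. In the members outside these 3 groups the median T content was 26.7% in the higher and 25.9% in the lower loci, and the median G content 20% in both. The motif AATAAA, the usual polyadenylation signal, was searched on the strand of the element. Among loci of 432.5 to 833.5 bases, the middle range of the member lengths, 40.0% of members and 48.5% of all loci held it. Members of that length were higher in Z18fl in 25.9% of cases with the motif and 19.8% without it, and all loci of that length in 28.1% and 24.1%.

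Z18trunc was set against Z18fl to describe how the pulled-down counts differ between the shortened and the whole protein. By subfamily 0 of 162 members were higher and 2 lower with edgeR, against 1.48% and 2.43% of all. At an unadjusted p under 0.05 12 were higher and 15 lower. DESeq2 called 1 higher and 2 lower, 0.617% and 1.23% of members against 3.9% and 2.11% of all. The 2 lower with edgeR were LTR45C and LTR72B. LTR45C had 85.5, 138 and 114 CPM in Clover and 185, 175 and 176 with Z18fl, then 109, 109 and 104 with Z18trunc and 144, 100 and 73.0 with Z18truncZnFmut. It was higher in Z18fl than in Clover by 0.67 ± 0.15 (edgeR adjusted p = 0.0017) and lower in Z18trunc than in Z18fl, with a log2 fold change of -0.78 ± 0.10 (edgeR adjusted p = 0.0012), a call kept under each alternative run. Much of this sum came from the copy in an intron of BRD9 described below. That copy had 18, 15 and 22 counts in Clover, 125, 114 and 135 with Z18fl and 54, 53 and 59 with Z18trunc. The LTR45C values therefore do not show a change of the other copies, and the sum without that copy was not tested. LTR72B was rare, with 20.02, 21.5 and 18.1 CPM in Z18fl and 6.92, 9.03 and 1.38 in Z18trunc (-1.86 ± 0.46, edgeR adjusted p = 0.045). That call was lost with aligned fragments (edgeR adjusted p = 0.054), with no filter (0.056), with the replicate number as a block (0.14), without Z18fl replicate 1, 2 or 3 (0.22, 0.18 and 0.098) and without Z18trunc replicate 1 (0.11), and DESeq2 gave it no adjusted p. Without Z18trunc replicate 3 there were 11 subfamilies higher and 6 lower of 165, 6.67% and 3.64% against 9.2% and 4.81% of all, MER51A (0.38) and LTR54 (0.49) among the higher and LTR1B (-0.34) and MER52D (-0.24) among the lower. Without any 1 of the Z18fl libraries or Z18trunc replicate 1, 1 subfamily was lower, and 3 were without Z18trunc replicate 2.

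At loci 1 of 366 members was higher in Z18trunc than in Z18fl and 27 were lower, against 2.62% and 3.13% of all 19413 loci. Members reached 7.38% lower, with a median log2 fold change of -0.22 against 0.01 for all. Of the LTR class loci that are not members 5.26% were lower, with a median of -0.17. The 27 were 16 without Z18fl replicate 1 and 12 without Z18fl replicate 2. Leaving out Z18trunc replicate 1 or 2 gave 10 and 9. MER52 had 0 higher and 13 lower of 80, and LTR1 0 and 3 of 77. The 13 were 2 and 3 without Z18trunc replicate 1 and 2, and 7, 4 and 8 without Z18fl replicate 1, 2 and 3. With aligned fragments 21 members were lower.

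LTR45C in an intron of BRD9, a bromodomain subunit of a BAF chromatin remodeller, lies at chr5:859556-859703. It had 18, 15 and 22 counts in Clover and 125, 114 and 135 with Z18fl, then 54, 53 and 59 with Z18trunc and 82, 46 and 41 with Z18truncZnFmut. Z18fl stood above every other library, at 194, 190 and 175 locus CPM, and Z18trunc had 74.5, 71.6 and 88.3. The log2 fold change of Z18trunc over Z18fl was -1.24 ± 0.18 (edgeR adjusted p = 2.9e-04). Over Clover it was 1.92 ± 0.22 in Z18fl (edgeR adjusted p = 2.1e-06). It was 0.77 ± 0.27 in Z18trunc and 0.96 ± 0.31 in Z18truncZnFmut, and both calls were lost under DESeq2, with uniquely mapping reads and without Clover replicate 1 or 2, at values between 0.61 and 0.98. The Z18trunc call was also lost without Z18trunc replicate 3 (0.73), and the Z18truncZnFmut call without Clover replicate 3 (1.05) or Z18truncZnFmut replicate 1 (0.81). LTR1A2 in an intron of HPCAL1, a neuronal calcium sensor, went the same way at chr2:10358347-10359176, with 30.8, 45.2 and 28.3 locus CPM in Clover and 94.7, 115 and 98.7 with Z18fl, then 30.3, 37.8 and 43.4 with Z18trunc and 39.8, 36.9 and 31.5 with Z18truncZnFmut. Only the Z18fl libraries stood out, and Z18trunc over Z18fl was -1.45 ± 0.23 (edgeR adjusted p = 6.5e-04).

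Other loci lower in Z18trunc than in Z18fl were MER52A in JMJD7-PLA2G4B, a readthrough gene (-1.29 ± 0.22, chr15:41831573-41832381), MER31A in an untranslated region of KLC1, a kinesin light chain (-1.24 ± 0.23, chr14:103712861-103713310), and MER39 antisense to FARP1, an exchange factor of small GTPases (-1.15 ± 0.21, chr13:98441276-98441807). MER31A in KLC1 had 22.4, 16.9 and 28.3 locus CPM in Clover and 102, 93.1 and 104 with Z18fl, then 48.3, 31.1 and 46.4 with Z18trunc and 37.0, 60.9 and 17.3 with Z18truncZnFmut. MER52A in the zinc finger gene ZNF804A was -1.04 ± 0.25 (edgeR adjusted p = 0.015), with 65.2, 93.1 and 74.0 locus CPM in Z18fl and 38.6, 31.1 and 41.9 in Z18trunc (chr2:184679314-184681257). The RPTOR copy of MER52A also passed (-0.65 ± 0.19), and its call was lost under DESeq2, with aligned fragments, with uniquely mapping reads (-0.62) and without any 1 of Z18fl replicates 1, 2 and 3 and Z18trunc replicates 1 and 2. The SAMMSON and LINC01579 loci gave 0.21 ± 0.20 (edgeR adjusted p = 0.56) and -0.19 ± 0.13 (edgeR adjusted p = 0.41). The 1 locus called higher was MER51A in YY1AP1, 0.77 ± 0.20 (edgeR adjusted p = 0.027), and the call was lost without any 1 of Z18fl replicates 1, 2 and 3 and Z18trunc replicates 1 and 3, with values between 0.69 and 0.85.

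Z18truncZnFmut was compared with Clover to describe what was pulled down with the truncated protein when its zinc finger is mutated. By subfamily 0 of 159 members were higher and 0 lower with edgeR, against 1.3% and 0% of all. At an unadjusted p under 0.05 the counts were 3 and 16. DESeq2 called 0 and 10, 0% and 6.29% of members against 5.43% and 3.04% of all. Without Z18truncZnFmut replicate 3, 5 of 145 were higher, LTR1A2, LTR1A1, LTR1D, MER52D and MER61C, and 12 lower, among them MER51A, LTR54, LTR21A and MER61E. Those counts are 3.45% and 8.28% of the members, against 10.9% and 5.7% of all. At loci 14 of 237 were higher and 11 lower, against 12.3% and 4.83% of all 10152 loci, and members reached 5.91% and 4.64%. The 11 lower were 7 without Clover replicate 3 or Z18truncZnFmut replicate 2. The 14 higher loci held 8 of LTR1 (of 44 tested) and 4 of MER52 (of 43). With all libraries but replicate 3 of Z18truncZnFmut, 12 were higher and 11 lower of 228, 5.26% and 4.82% against 10.4% and 2.79% of all. LTR48B in an intron of the long noncoding gene ENSG00000290032 (chr6:27138224-27138815) fell by 0.86 ± 0.18 with Z18fl, and with Z18trunc and Z18truncZnFmut by 0.86 ± 0.18 and 0.82 ± 0.21. The last value was -0.65 without Z18truncZnFmut replicate 1 (edgeR adjusted p = 0.059) and -0.63 with aligned fragments (edgeR adjusted p = 0.060).

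Z18truncZnFmut was set against Z18trunc to isolate the zinc finger mutation. Of 165 member subfamilies 0 were higher and 0 lower with edgeR, against 0% and 0% of all, with 3 and 4 at an unadjusted p under 0.05 and 0 and 0 by DESeq2. With the replicate number as a block the edgeR counts were again 0 and 0, with 7 and 5 at an unadjusted p under 0.05. Of 325 member loci 1 was higher and 0 lower with edgeR, against 0.368% and 0.351% of all, with 28 and 9 at an unadjusted p under 0.05. DESeq2 called 2 and 0, against 0.517% and 0.481% of all. With the block 0 loci were higher and 0 lower with edgeR, with 22 and 7 at an unadjusted p under 0.05. Without Z18truncZnFmut replicate 3 edgeR called 0 subfamilies higher and 0 lower of 165. At loci it then called 1 higher and 1 lower of 411, against 0.169% and 0.26% of all. The 1 locus called by edgeR with all libraries and no block was MER50 between genes at chr12:12927561-12927653. It had 9, 12 and 7 counts in Z18trunc and 31, 25 and 27 in Z18truncZnFmut, and 39.3, 8.47 and 31.1 locus CPM in Clover against 44.1, 46.2 and 42.6 in Z18truncZnFmut. The log2 fold change over Z18trunc was 1.77 ± 0.37 (edgeR adjusted p = 0.029). It was lost with the replicate number as a block (edgeR adjusted p = 0.058) and without Z18trunc replicate 1, 2 or 3, between 1.64 and 1.94. At the SAMMSON exon the difference was -0.21 ± 0.20 (edgeR adjusted p = 0.69), at LINC01579 0.01 ± 0.16 (edgeR adjusted p = 0.99) and at the BRD9 intron 0.22 ± 0.25 (edgeR adjusted p = 0.74). These p-values do not show that the constructs act alike.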

How the data were processed

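PAR-CLIP libraries of 4 constructs, 3 per construct, were analysed. Reads were trimmed with cutadapt 4.6 per the submitters' notes. The authors made the tables with SQuIRE on hg38, whose version is not given in the sources used here. The expected counts per element and strand were estimated by the authors, with multimapping reads shared out. The counts of uniquely mapping reads were deposited by the authors as whole numbers. The score was deposited by the authors as the percent of an element's aligned reads credited to it. Positions and other descriptive columns were used as deposited by the authors.

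Members were rows on the strand of the element, chosen by subfamily name. The members, lists and tests were chosen with earlier results of these data known. Expected counts were rounded and tested with edgeR 4.0.16 (R 4.3.3, quasi-likelihood, TMM, filterByExpr with a minimum count of 10 and total of 15) on the 6 libraries of each comparison. Benjamini-Hochberg adjustment ran over all features of 6 element classes, and calls used an adjusted p under 0.05. Scripts were tested on simulated counts. The total member counts that set the precision are those in the report, and counting error and library spread both enter the standard errors.

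Subfamilies were named as up to 6 rises and 6 falls at a mean of 50 counts or more, plus the p53-linked and reproductive lists. Loci were named at a mean of 20 counts and a mean score of 90 or more with groups that did not overlap, which gave MER49 in APOBEC3C and LTR35B in LAMA5. A rule added after the values were seen (50 counts, score 70, groups that did not overlap, up to 5 rises and 5 falls) and a set of followed loci gave the others. The subfamilies LTR1A2 in Z18fl, MER52A, MER52D, LTR45C, LTR72B and MER51D were also singled out after their values were seen. Exons and introns were those of GENCODE release 44 (at least 50% of the length in exons for an exonic locus) with bedtools 2.31.1, and sequence from hg38 with pysam 0.24.0.

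Alternatives were DESeq2 1.42.0, library sizes from aligned fragments, no filter, uniquely mapping reads, the replicate number as a block, and each library left out. Same-numbered libraries of Z18truncZnFmut and Z18trunc deviated together (correlations of 0.57, 0.29 and 0.70), so the fit with the number as a block is given beside the one without it, from which calls were taken. In the other comparisons correlations ran from -0.28 to 0.11. Some member loci are not reported here.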

Additional observations from a re-analysis of the deposited data

Results flagged for a closer look

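Reads on the strand opposite to the members lay outside the comparisons above and were more frequent with each ZC3H18 construct than with Clover. Clover libraries had a mean of 607.4 such CPM of aligned fragments (575.1 to 653.8). Z18fl had 835.2 (800.1 to 866.5), Z18trunc 865.1 (777.4 to 989.0) and Z18truncZnFmut 1113 (755.7 to 1762). No library of the 3 constructs overlapped with Clover. No test was run on these values, and the highest is Z18truncZnFmut replicate 3.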

How the results depend on the processing

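With library sizes from aligned fragments, subfamilies numbered 50 higher and 11 lower in Z18fl, 36 and 2 in Z18trunc, and 1 lower in Z18trunc against Z18fl. Of all subfamilies 54% were then higher and 4.15% lower in Z18fl, and 45.2% and 0.973% in Z18trunc. Loci numbered 29 lower in Z18fl, 50 higher and 12 lower in Z18trunc, 4 lower in Z18truncZnFmut and 2 lower in Z18truncZnFmut against Z18trunc. LTR10A in Z18fl turned to 0.34, LTR17 in Z18fl to 0.12, LTR17 in Z18trunc to 0.18 and MER52A in Z18fl to 0.36, which was 0.73 with uniquely mapping reads. DESeq2 gave subfamily counts of 3 higher in Z18trunc, 10 lower in Z18truncZnFmut and 1 higher in Z18trunc against Z18fl, and locus counts of 43 lower in Z18fl, 22 lower in Z18trunc, 13 lower in Z18trunc against Z18fl and 2 higher in Z18truncZnFmut against Z18trunc. With no filter there was 1 subfamily lower in Z18trunc against Z18fl, and loci numbered 16 lower in Z18fl, 1 lower in Z18trunc, 0 lower in Z18truncZnFmut, 0 higher and 11 lower in Z18trunc against Z18fl, and 0 higher and 1 lower in Z18truncZnFmut against Z18trunc, over far more loci tested (11933 members in Z18fl). Uniquely mapping reads gave 4 subfamilies lower in Z18trunc against Z18fl, and 44 loci lower in Z18fl, 24 lower in Z18trunc, 3 higher in Z18trunc against Z18fl and 1 lower in Z18truncZnFmut against Z18trunc. The cause of these changes was not tested.

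With the replicate number as a block, 3 subfamilies were higher in Z18trunc and 1 lower in Z18trunc against Z18fl, and 0 loci were higher in Z18trunc against Z18fl and in Z18truncZnFmut against Z18trunc. Leaving out 1 library at a time, subfamilies ran from 3 to 10 higher and 11 to 17 lower in Z18trunc, 0 to 5 and 0 to 12 in Z18truncZnFmut, and 0 to 11 and 1 to 6 in Z18trunc against Z18fl. Loci ran from 37 to 74 lower in Z18fl, 17 to 44 lower in Z18trunc, 7 to 12 lower in Z18truncZnFmut, 0 to 2 higher and 9 to 23 lower in Z18trunc against Z18fl, and 0 to 2 higher and 0 to 1 lower in Z18truncZnFmut against Z18trunc. Over 191 results for named subfamilies and loci and 2054 alternatives, 1907 kept direction and side of the threshold, 121 lost it, 21 passed it and 5 turned. Loci of few counts, and copies that share reads, limit the precision.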
